A study of Homo sapiens with 12 samples.

Results

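The 10 genes described here are outputs and feedback inhibitors of the MAP kinase pathway: the phosphatases DUSP4 and DUSP6, the Sprouty genes SPRY2 and SPRY4, the Spred genes SPRED1 and SPRED2, the ETS factors ETV4 and ETV5, and PHLDA1 and FOSL1. They were taken by symbol from the normalised expression table, and 10 of 10 symbols were found among its 12616 listed genes. RNA was measured in 12 libraries from MeWo and SkMel28, 2 human cutaneous melanoma cell lines. Both lines held a hairpin directed at MITF, the master transcription factor of melanocytes, whose expression is switched on by doxycycline (Dox), so the control groups carry the hairpin too. The 4 groups of 3 libraries were MeWo control and SkMel28 control, kept 8 days without Dox (0 µg/ml), and MeWo Dox and SkMel28 Dox, kept 8 days with 1 µg/ml Dox. Per the labels MeWo was grown in EMEM and SkMel28 in RPMI, whereas the study's methods name RPMI for every human line but HBL, so that by the labels line and medium cannot be told apart. A line given Dox without this hairpin was not analysed here, and in every change with Dox the effects of hairpin and drug cannot be told apart. Nothing in the labels says that the 3 libraries of a group came from separate cultures, and p-values measure only the spread between these libraries, which may be technical.

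Growth factor receptors activate RAS, which drives the kinases RAF, MEK and ERK in turn, and active ERK changes transcription through ETS factors, AP-1 and other regulators. Among the genes it turns on are inhibitors that act back on the cascade: dual-specificity phosphatases take phosphate off ERK, and Sprouty and Spred proteins restrain signalling at the level of RAS and RAF. The RNA of these genes is for that reason widely used as a readout of pathway output in melanoma, where BRAF, NRAS or NF1 is often mutated. SkMel28 is widely used as a line with mutant BRAF, and MeWo as a line with wild-type BRAF and inactivated NF1, while the study's methods describe oncogenic BRAF in its human lines with named exceptions that do not include MeWo. No genotype was measured here.

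The libraries came from QuantSeq Forward, a kit that sequences the 3′ end of each polyadenylated RNA, and each held 2568187 to 3714608 reads, of which 5.69 to 8.55% fell on ERCC spike-in RNAs. Values are reads per 1000000 reads of the effective library size, so that 1 read is worth 0.278 to 0.389 depending on the library. MITF, the target of the hairpin, was 676 ± 27.9 in MeWo control and 392 ± 51.7 in MeWo Dox (SD, n = 3), and 797 ± 61.0 in SkMel28 control and 568 ± 13.8 in SkMel28 Dox. It fell by 0.79 in MeWo (adjusted p = 6.49e-05) and by 0.49 in SkMel28 (adjusted p = 0.00705) on the log2(value + 1) scale, in the direction the labels give. The 9 melanocyte lineage markers were all listed, with summed values of 11599 to 13295 across the control libraries and 6756 to 8440 across the Dox libraries. They did not move together: in MeWo 6 fell and 3 (DCT, S100B and S100A1) rose, and in SkMel28 3 (PMEL, MLANA and MITF) fell, S100B rose and 5 did not pass. Of the markers of other cells, 2 of 6 fibroblast, 1 of 6 keratinocyte, 1 of 6 leukocyte and 0 of 5 endothelial markers were listed, and COL1A1, KRT5, KRT14, PTPRC and PECAM1 were not among the listed genes. Of those listed, the 2 fibroblast markers summed to 41.5 to 47.8 in MeWo control and 9.85 to 19.2 in MeWo Dox, and in SkMel28 the leukocyte marker CD68 was 78.2 to 101 without and 18.7 to 23.0 with Dox, and their part in the results was not tested. In bulk samples fewer cells of a type and less RNA per cell cannot be told apart. The 3 MeWo Dox libraries stood further apart than those of other groups, with a mean correlation to the rest of their group of 0.965 to 0.973 across genes against 0.979 to 0.985 elsewhere.

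In GENCODE release 44 (hg38), the build named in the submitters' processing notes, the 10 genes are single protein-coding loci. DUSP6 lies at chr12:89347235-89352501 (minus strand) and PHLDA1 at chr12:76025447-76031776 (minus). The Sprouty genes lie at chr13:80335976-80341126 (SPRY2, minus) and chr5:142310427-142326455 (SPRY4, minus), and the Spred genes at chr15:38252836-38357249 (SPRED1, plus) and chr2:65310851-65432637 (SPRED2, minus). The transcription factor genes lie at chr17:43527844-43579620 (ETV4, minus), chr3:186046314-186110318 (ETV5, minus) and chr11:65892049-65900573 (FOSL1, minus). ETV4 overlaps DHX8 and ETV5 overlaps DGKG, which are also listed, and since the strand used in counting is not given in the sources used here, reads of each pair may not be fully separated.

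The RefSeq promoter table (GRCh38.p14) held 6 of the 10 genes. The 250 bases before the annotated start are printed 5′ to 3′ on the strand of the gene for the 4 of these 6 that passed the test with Dox in either line. Capitals mark the core of the M-box, a site bound by the MITF family (TCATGTG, present on the opposite strand as CACATGA), and the core of ETS sites (CCGGAA, or TTCCGG on the opposite strand). The windows are chr12:89352502-89352751 (DUSP6, minus), chr13:80341127-80341376 (SPRY2, minus), chr12:76031777-76032026 (PHLDA1, minus) and chr15:38252586-38252835 (SPRED1, plus).
DUSP6: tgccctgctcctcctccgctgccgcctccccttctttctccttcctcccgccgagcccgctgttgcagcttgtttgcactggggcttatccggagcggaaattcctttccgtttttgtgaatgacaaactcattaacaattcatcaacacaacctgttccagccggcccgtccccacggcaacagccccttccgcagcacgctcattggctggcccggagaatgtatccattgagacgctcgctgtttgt
SPRY2: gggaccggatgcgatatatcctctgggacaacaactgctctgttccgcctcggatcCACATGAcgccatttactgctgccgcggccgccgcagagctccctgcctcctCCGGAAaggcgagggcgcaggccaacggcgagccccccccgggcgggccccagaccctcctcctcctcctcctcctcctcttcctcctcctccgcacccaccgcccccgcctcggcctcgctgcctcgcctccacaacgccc
PHLDA1: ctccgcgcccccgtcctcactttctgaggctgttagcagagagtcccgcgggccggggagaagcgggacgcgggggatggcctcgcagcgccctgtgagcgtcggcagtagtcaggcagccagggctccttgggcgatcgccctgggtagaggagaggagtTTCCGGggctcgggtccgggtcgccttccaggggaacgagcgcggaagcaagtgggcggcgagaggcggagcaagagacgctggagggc
SPRED1: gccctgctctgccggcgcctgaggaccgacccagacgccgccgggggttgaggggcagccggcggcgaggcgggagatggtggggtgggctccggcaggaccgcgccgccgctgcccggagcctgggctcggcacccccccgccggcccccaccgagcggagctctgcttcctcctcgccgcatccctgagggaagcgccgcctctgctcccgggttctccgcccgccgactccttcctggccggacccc
The M-box core was found in SPRY2 alone of the 6 promoters searched, at positions -194 to -188 from the start, and in 2.52% of 35116 promoters of the same length. The ETS core was found in SPRY2 (-142 to -137) and in PHLDA1 (-89 to -84), and in 14.5% of all promoters. The core of a CRE (TGACG), which overlaps the M-box core in SPRY2, was found in SPRY2 and SPRY4 and in 21.2% of all promoters. The E-box CACGTG (6.34% of all promoters), the AP-1 site TGACTCA (4.20%), the CRE TGACGTCA (1.65%) and the CIC sites TGAATGAA (1.40%) and TGAATGGA (0.832%) were not found in any of the 6 windows on either strand. These matches describe letters in the windows, and binding was not measured.

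The first comparison asked how the 10 genes changed with Dox in each line, and genes of 1 family did not all pass. In MeWo DUSP6, SPRY2, PHLDA1 and FOSL1 rose and ETV5 fell, so that 5 of 10 genes passed the test, 4 of them higher and 1 lower. In SkMel28 SPRED1 rose and ETV5 fell, and the other 8 did not pass. ETV5 was the gene of the 10 that passed in both lines. Of all listed genes 16.7% passed in MeWo (8.58% higher and 8.12% lower) and 10.9% in SkMel28 (5.88% higher and 5.04% lower). The median change of the 10 genes was 0.51 in MeWo and 0.24 in SkMel28 on the log2(value + 1) scale, beside medians over all listed genes of 0.0 and 0.0029. A gene passed at an adjusted p under 0.05 (limma, Benjamini-Hochberg adjustment over the 12616 genes).

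**Figure D1:**
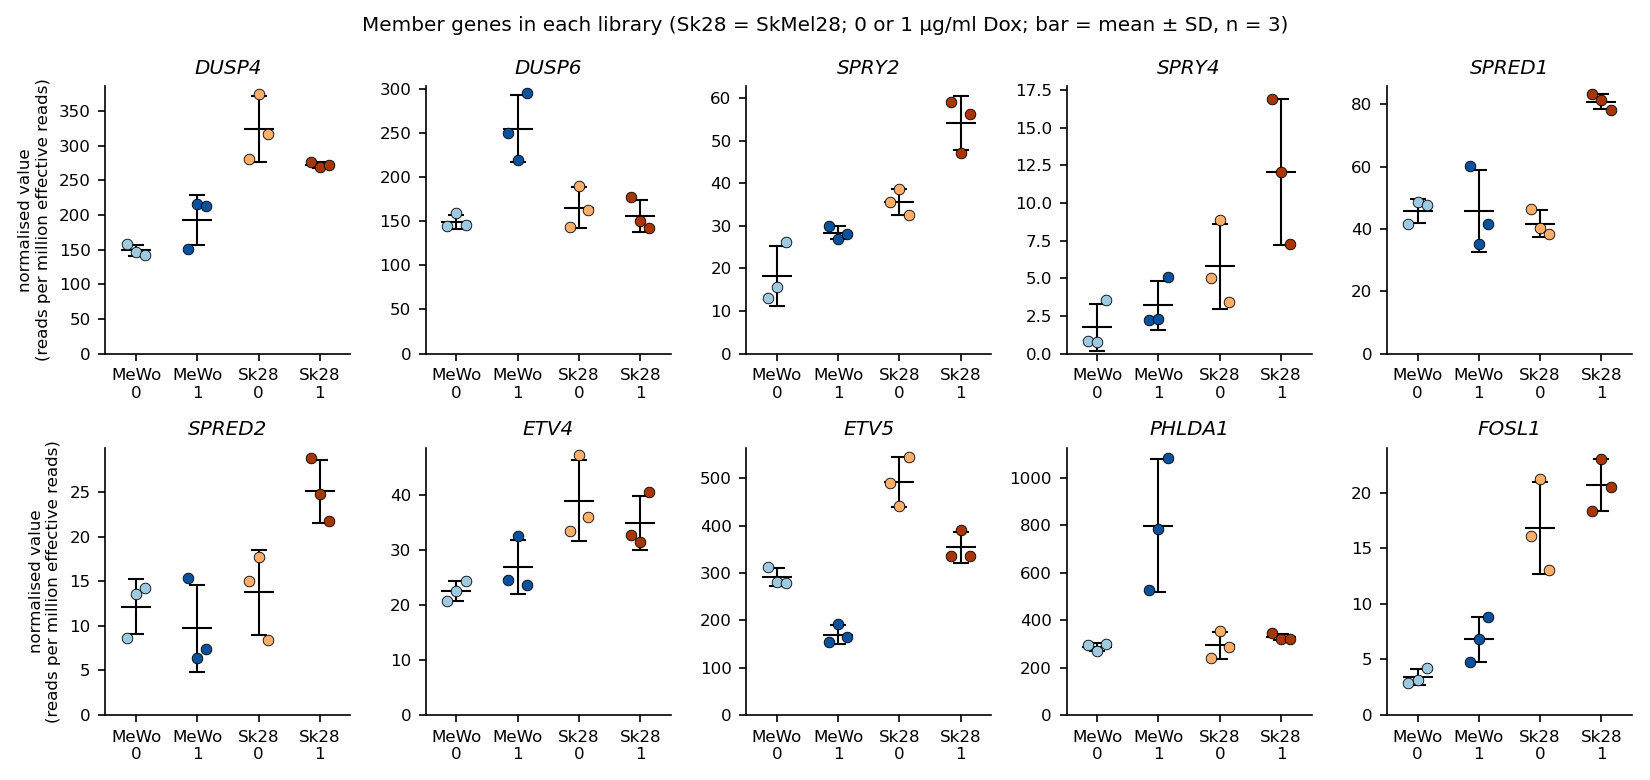
Normalised value (reads per 1000000 effective reads, axes from 0) of the 10 genes in each of the 12 libraries, by line and Dox dose in µg/ml (Sk28 is SkMel28). Points are libraries and bars are mean ± SD of 3, and PHLDA1 in MeWo Dox spans 527 to 1085 while its other libraries lie at or below 354.

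The dual-specificity phosphatases remove phosphate from MAP kinases, DUSP6 acting on ERK in the cytoplasm and DUSP4 in the nucleus. DUSP6 was 144, 159 and 146 in the MeWo control libraries and 249.6, 219 and 295 in the MeWo Dox libraries. All 3 MeWo Dox libraries were above every control library of that line, and DUSP6 rose 1.70-fold (log2 change 0.76, SE 0.14, adjusted p = 0.000791). With the 6 MeWo libraries alone DUSP6 passed at an adjusted p of 0.0230. In SkMel28 it was 144, 189.8 and 162 without and 177, 150.1 and 142 with Dox, and these groups overlapped (log2 change -0.08, 95% interval -0.36 to 0.21, adjusted p = 0.797). DUSP4, the nuclear enzyme, whose gene lies at chr8:29333064-29350684 on the minus strand, was 158, 146 and 143 in MeWo control and 152, 215 and 213 in MeWo Dox. The first Dox library lay within the control range and the other two above it, and the change of 0.36 did not pass (SE 0.14, adjusted p = 0.0860). Without that library the DUSP4 change was 0.52 and passed (adjusted p = 0.00124), as it did after spike-in scaling (0.63, adjusted p = 0.0148). In SkMel28 DUSP4 was 280.4, 375 and 318 without and 277, 269 and 273 with Dox, all Dox libraries lying below all controls, with a log2 change of -0.24 that did not pass (adjusted p = 0.320).

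Sprouty proteins are induced by growth factor signalling and act on the steps between receptor and RAF. SPRY2 was 12.96, 15.5 and 26.2 in MeWo control and 30.0, 26.9 and 28.1 in MeWo Dox. In SkMel28 it was 35.6, 38.7 and 32.6 without and 59.1, 47.1 and 56.2 with Dox. In both lines every Dox library was above every control library. The log2 change was 0.67 in MeWo (SE 0.20, adjusted p = 0.0321), which passed, and 0.59 in SkMel28 (SE 0.20, adjusted p = 0.0774), which did not. The MeWo call depended on the setting: adjusted p was 0.0503 with edgeR, 0.0620 without the mean-variance trend, 0.191 with the 6 MeWo libraries alone, and 0.152, 0.128, 0.0543 and 0.0796 without MeWo control 1, MeWo control 2, MeWo Dox 2 or MeWo Dox 3. The SkMel28 change passed with edgeR (adjusted p = 0.0487), with DESeq2 (0.0452) with the 6 SkMel28 libraries alone (0.0241), and without MeWo control 3 (0.0265) or MeWo Dox 1 (0.0443).

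SPRY4, the second Sprouty gene, had the fewest reads of the 10. Its values were 0.864, 0.777 and 3.56 in MeWo control and 2.23, 2.27 and 5.08 in MeWo Dox. In SkMel28 they were 5.01, 8.88 and 3.45 without and 16.9, 12.03 and 7.25 with Dox. The groups overlapped in both lines, and log2 changes of 0.70 (SE 0.41, adjusted p = 0.263) and 0.96 (SE 0.41, adjusted p = 0.156) did not pass. Their 95% intervals, -0.16 to 1.55 and 0.10 to 1.81 on 2 to 57 reads per library, hold changes as large as those of the genes that passed.

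Spred proteins share a domain with the Sprouty proteins, and SPRED1 brings the RAS inhibitor NF1 to the membrane. SPRED1 was 46.5, 40.3 and 38.3 in SkMel28 control and 83.1, 81.2 and 78.3 in SkMel28 Dox. The Dox libraries lay close together and far above the controls, and SPRED1 rose 1.94-fold (log2 change 0.94, SE 0.17, adjusted p = 0.00121). In MeWo it was 41.5, 48.6 and 47.6 without and 60.3, 35.2 and 41.7 with Dox. These groups overlapped (log2 change -0.04, 95% interval -0.39 to 0.32, adjusted p = 0.921). SPRED2, a second inhibitor of the RAS to ERK step, was 15.03, 17.8 and 8.43 in SkMel28 control and 28.8, 24.7 and 21.8 in SkMel28 Dox. All SkMel28 Dox libraries were above all controls, but the change of 0.87 did not pass (SE 0.30, adjusted p = 0.0793). In MeWo SPRED2 was 8.64, 13.6 and 14.3 without and 15.3, 6.44 and 7.45 with Dox. As for SPRED1, MeWo Dox 1 was the highest library of its group, and the change of -0.35 did not pass (adjusted p = 0.465). Without MeWo Dox 1, SPRED2 in SkMel28 passed (adjusted p = 0.0209) at the same change of 0.87. In that run 2042 of all genes passed in SkMel28, against 1378 in the main analysis. The 4 groups share an estimate of the spread in this fit, and its part was not tested.

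ETV4 and ETV5 are ETS transcription factors of the PEA3 family and well known targets of ERK signalling. ETV5 was 313, 281 and 279 in MeWo control and 154, 192 and 164 in MeWo Dox. In SkMel28 it was 490.3, 442 and 546 without and 335, 391 and 336 with Dox. No Dox library reached a control library of its line, and ETV5 fell in both, by 0.78 in MeWo (SE 0.12, adjusted p = 0.000192) and by 0.47 in SkMel28 (SE 0.12, adjusted p = 0.0152) on the log2(value + 1) scale. The SkMel28 call was lost without SkMel28 control 1 (adjusted p = 0.0502), SkMel28 control 3 (0.0936), SkMel28 Dox 1 (0.0765) or SkMel28 Dox 3 (0.0589), and without the mean-variance trend (0.0696). Its relative ETV4 was 20.7, 22.5 and 24.3 in MeWo control and 24.6, 32.6 and 23.7 in MeWo Dox, and 33.4, 47.3 and 36.02 in SkMel28 control and 32.7, 31.4 and 40.5 in SkMel28 Dox. Groups overlapped in both lines, with changes of 0.24 (adjusted p = 0.396) and -0.15 (adjusted p = 0.691) that did not pass.

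PHLDA1 encodes a protein with a pleckstrin homology-like domain whose RNA is induced by ERK activity. It was 296, 269 and 299 in MeWo control and 527, 784 and 1085 in MeWo Dox. The 3 Dox libraries differed widely among themselves (799 ± 279.5, SD, n = 3), yet the lowest was above every control, and PHLDA1 rose 2.78-fold (log2 change 1.41, SE 0.19, adjusted p = 5.1e-05), the largest change of the 10 genes in either line. PHLDA1 passed in every alternative run, at adjusted p values of up to 0.0301. In SkMel28 it was 241, 354 and 285 without and 344, 319.8 and 320.3 with Dox, which overlapped (log2 change 0.18, 95% interval -0.22 to 0.58, adjusted p = 0.644). FOSL1 encodes FRA-1, an AP-1 subunit stabilised by ERK. It was 2.88, 3.11 and 4.21 in MeWo control and 4.79, 6.82 and 8.81 in MeWo Dox. The MeWo groups did not overlap and FOSL1 rose by 0.81 (SE 0.25, adjusted p = 0.0341), on 8 to 26 reads per library. The call was lost with DESeq2 (adjusted p = 0.0623), a pseudocount of 5 (0.0682), the 6 MeWo libraries alone (0.133), and without MeWo control 1 (0.105), MeWo control 2 (0.106), MeWo Dox 2 (0.0804) or MeWo Dox 3 (0.159). In SkMel28 FOSL1 was 16.1, 21.3 and 13.03 without and 18.4, 23.1 and 20.5 with Dox, and the change of 0.30 did not pass (adjusted p = 0.514).

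**Figure D2:**
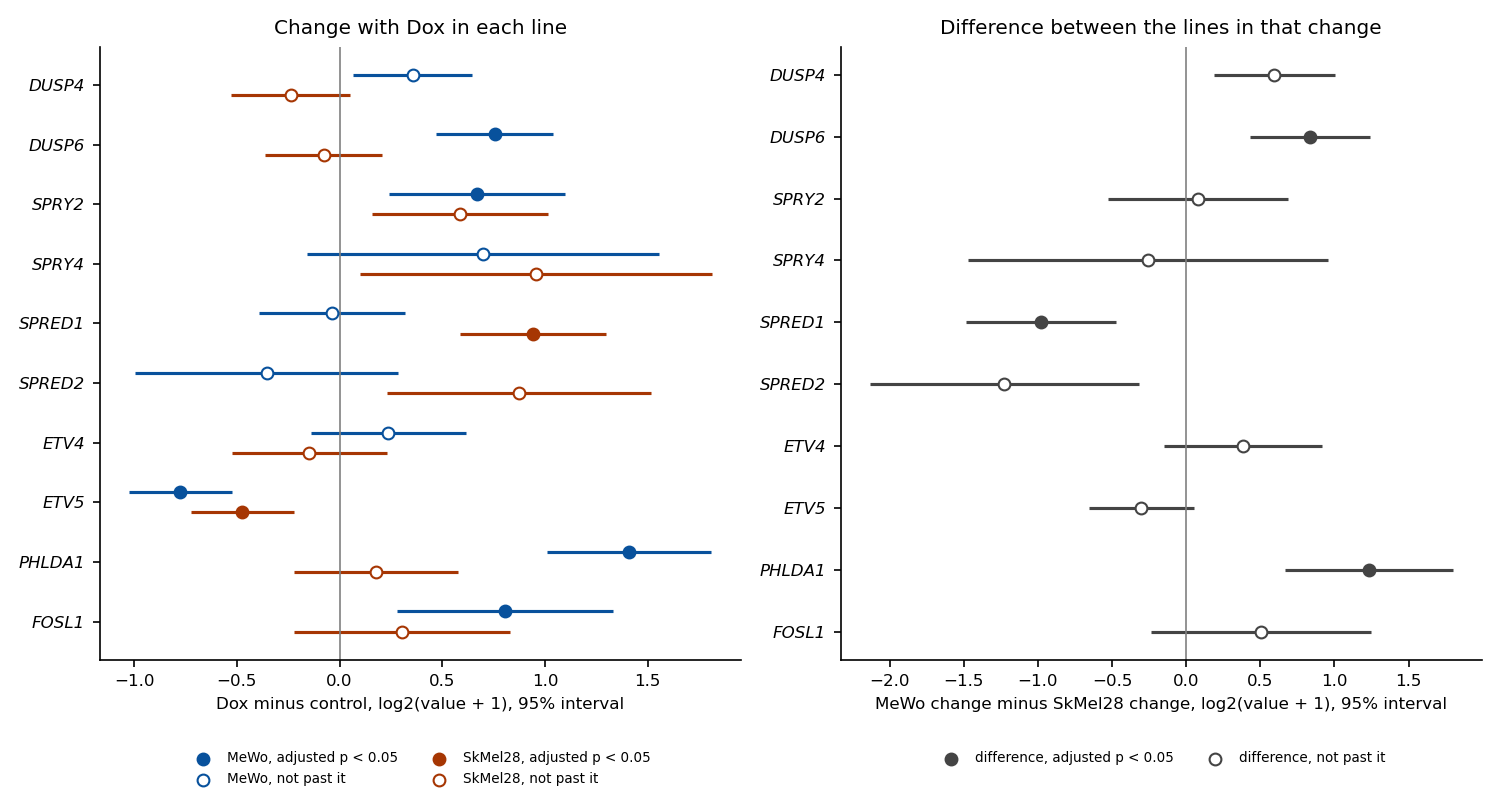
Change with Dox of the 10 genes on the log2(value + 1) scale, with 95% intervals from limma (left, MeWo in blue and SkMel28 in brown), and the MeWo change minus the SkMel28 change (right). Filled points passed at an adjusted p under 0.05, and ETV5 lies below 0 in both lines, while the MeWo points of DUSP6 and PHLDA1 lie to the right of the SkMel28 points and that of SPRED1 to the left.

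Whether the lines differed in these changes was tested directly, as the MeWo change minus the SkMel28 change. DUSP6 (difference 0.83, SE 0.19, adjusted p = 0.0146) and PHLDA1 (1.23, SE 0.27, adjusted p = 0.0110) changed more in the positive direction in MeWo, and SPRED1 (-0.98, SE 0.24, adjusted p = 0.0200) in SkMel28. Thus 3 of 10 genes passed, 2 positive and 1 negative, beside 7.09% of all listed genes (3.71% positive and 3.38% negative), with medians of 0.23 over the 10 and -0.021 over all genes. All 3 calls rest on the model of spread: without the mean-variance trend adjusted p was 0.0619 for DUSP6, 0.0534 for PHLDA1 and 0.0553 for SPRED1, and the SPRED1 difference did not pass after scaling to the spike-ins either (-0.61, adjusted p = 0.197), nor without MeWo control 2 (0.0620), MeWo control 3 (0.0561), SkMel28 control 3 (0.0586), SkMel28 Dox 1 (0.0559) or SkMel28 Dox 2 (0.0529). SPRED2 had a difference of -1.23 that did not pass (SE 0.43, adjusted p = 0.0879), and without MeWo Dox 1 it was -1.57 and passed (adjusted p = 0.00475). DUSP4 had a difference of 0.59 that did not pass (adjusted p = 0.0696), and it passed with DESeq2 (adjusted p = 0.0405), without MeWo Dox 1 (0.000956) and after spike-in scaling (0.0138). For SPRY2 the difference was 0.08 with a 95% interval of -0.53 to 0.69, and for ETV5 -0.30 with an interval of -0.66 to 0.05, so that neither line's change was shown to be the larger. The differences of SPRY4 (-0.26), ETV4 (0.39) and FOSL1 (0.50) did not pass either (adjusted p = 0.814, 0.356 and 0.389).

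The second comparison set the lines side by side, and most of the 10 genes were higher in SkMel28. Without Dox 6 of 10 passed as higher in SkMel28 and 0 as lower, beside 51.4% of all listed genes (26.6% higher and 24.8% lower), with a median difference of 0.75 over the 10 and 4.0e-05 over all genes. With Dox 7 passed as higher and 2 as lower, beside 53.6% of all listed genes (28.0% higher and 25.6% lower), with medians of 0.87 and 0.036. DUSP4, SPRY2, SPRY4, ETV5 and FOSL1 were higher in SkMel28 at both doses. These comparisons use the same libraries as the changes with Dox, and the values of the 2 doses are given side by side.

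FOSL1 had the largest difference without Dox, 3.40 ± 0.71 in MeWo against 16.8 ± 4.16 in SkMel28 (4.95-fold, log2 difference 2.004, SE 0.25, adjusted p = 3.29e-06), and 6.81 ± 2.01 against 20.7 ± 2.33 with Dox (log2 difference 1.501, adjusted p = 7.14e-05). DUSP4 was 149 ± 7.80 against 324 ± 47.5 without Dox (log2 difference 1.11, adjusted p = 3.35e-06) and 193 ± 36.2 against 273 ± 4.28 with Dox (0.51, adjusted p = 0.00457). The second value did not pass with scaling to the spike-ins (0.29, adjusted p = 0.194). Among the inhibitors SPRY2 differed by 0.99 without (adjusted p = 0.000597) and 0.90 with Dox (adjusted p = 0.00117). SPRY4 differed by 1.38 (SE 0.41, adjusted p = 0.00909) and 1.63 (adjusted p = 0.00262), and the first of these was lost without MeWo control 2 (1.14, adjusted p = 0.0515) or SkMel28 control 2 (1.06, adjusted p = 0.0570). ETV5 was 291 ± 18.8 against 493 ± 52.0 without Dox (0.75, adjusted p = 4.5e-05) and 170 ± 19.8 against 354 ± 32.2 with Dox (1.06, adjusted p = 9.42e-07). ETV4 differed by 0.75 without Dox (adjusted p = 0.00200), and by 0.36 with Dox, which did not pass (adjusted p = 0.0960).

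The remaining 4 genes did not pass between the control groups and passed between the Dox groups. SPRED1 was 45.9 ± 3.85 in MeWo control and 41.7 ± 4.27 in SkMel28 control (log2 difference -0.14, adjusted p = 0.520), and 45.7 ± 13.03 and 80.9 ± 2.45 with Dox (0.84, SE 0.17, adjusted p = 0.000428). SPRED2 was 12.2 ± 3.07 and 13.7 ± 4.80 without Dox (0.13, adjusted p = 0.731), and 9.74 ± 4.86 and 25.1 ± 3.53 with Dox (1.36, SE 0.30, adjusted p = 0.00112). Both Spred genes thus separated the lines with Dox, with SkMel28 the higher. DUSP6 was 149 ± 7.93 and 165 ± 23.2 without Dox (0.14, adjusted p = 0.415), and 255 ± 38.0 and 156 ± 18.1 with Dox (-0.70, SE 0.14, adjusted p = 0.000324). PHLDA1 was 288 ± 16.4 and 293 ± 56.9 without Dox (0.01, 95% interval -0.39 to 0.41, adjusted p = 0.965), and 799 ± 279.5 and 328 ± 13.7 with Dox (-1.22, SE 0.19, adjusted p = 3.64e-05). These were the 2 genes of the 10 that passed as higher in MeWo. The test of whether such a difference changed with dose is the test of the previous comparison, which SPRED1, DUSP6 and PHLDA1 passed and SPRED2 did not.

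**Figure D3:**
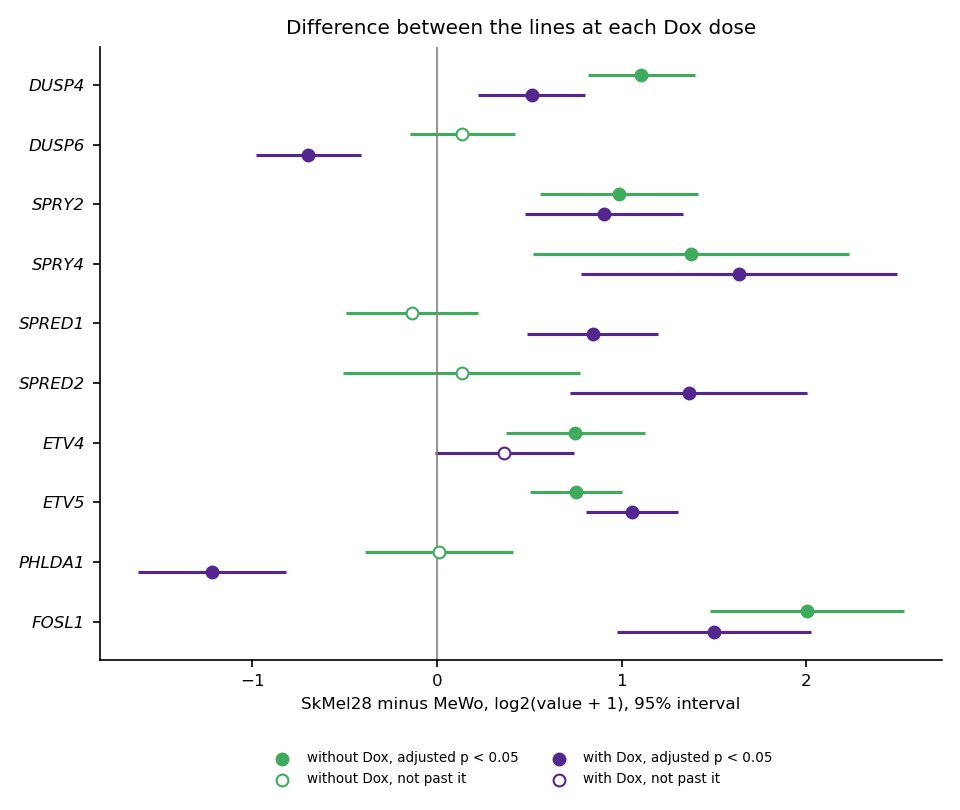
SkMel28 minus MeWo on the log2(value + 1) scale for the 10 genes, without Dox (green) and with 1 µg/ml Dox (purple), with 95% intervals from limma, filled where adjusted p was under 0.05. Without Dox 6 of 10 genes passed, and with Dox 9 of 10, of which DUSP6 and PHLDA1 lie to the left of 0.

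By group mean, SPRY2, SPRY4 and FOSL1 shared an order, MeWo control, MeWo Dox, SkMel28 control and SkMel28 Dox from low to high. For SPRY2 no neighbours in this order overlapped, for FOSL1 the SkMel28 groups did, and for SPRY4 all neighbours did. ETV5 ran from MeWo Dox through MeWo control and SkMel28 Dox to SkMel28 control with no overlap between neighbours. DUSP4 and ETV4 ran from MeWo control through MeWo Dox and SkMel28 Dox to SkMel28 control, with the MeWo groups overlapping for DUSP4 and all neighbours for ETV4. For DUSP6 and PHLDA1 the MeWo Dox libraries stood above the other 3 groups, which overlapped as neighbours. For SPRED1 and SPRED2 the SkMel28 Dox libraries stood above the other 3 groups, again with overlapping neighbours. For these separations and those given gene by gene above, the share of all listed genes was not counted.

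Across the 12 libraries, after the mean of each line was subtracted, Pearson r of log2(value + 1) was 0.89 for DUSP6 with PHLDA1 and 0.89 for PHLDA1 with FOSL1, 0.85 for SPRED1 with SPRED2, 0.80 for SPRY2 with SPRY4, 0.68 for DUSP4 with DUSP6 and -0.26 for ETV4 with ETV5. ETV5 had a negative r with each of the other 9 genes, lowest with SPRY2 (-0.87). DUSP4 had r of -0.65 with SPRED1 and -0.66 with SPRED2. These coefficients describe 12 libraries that share the Dox groups and the scaling of each library. By the same measure, the listed genes most like DUSP6 among 8073 with a mean of at least 10 were ARHGEF40 (0.93), SAT1 (0.93), ATP1B3 (0.93), AATK (0.92) and SEL1L3 (0.91), and those most like SPRY4 were FABP7 (0.93), LIPA (0.92), CD109 (0.92), CAPN7 (0.91) and PTPRJ (0.90). SPRY4 had only 2 to 57 reads per library and did not pass with Dox in either line, so its pattern holds much counting noise. Shared regulation was not tested.

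The other genes of the pathway were followed as 11 lists from ligand to output, of whose 126 symbols 103 were listed. With Dox 16 of these 103 rose and 8 fell in MeWo (median 0.035), where 8.58% of all listed genes rose and 8.12% fell. In SkMel28 15 rose and 6 fell (median 0.21), where 5.88% of all listed genes rose and 5.04% fell, and the counts of each list below stand beside the same shares. Genes passed in both directions, and 8 genes passed in both lines, 8 of 8 in the same direction, beside 515 of all 12616 genes (4.08%), of which 467 (90.7%) had the same direction. Of the genes named from these lists, 5 of 18 in MeWo (IER3, MAFF, PEBP1, MET and ERBB3) and 4 of 15 in SkMel28 (JUN, HBEGF and MET among them) passed in every alternative run. With the 6 MeWo libraries alone 12 of the 18 did not pass (DUSP5, SOCS6, EGR3, EGR1, JUN, CCND1, PLAUR, ETV1, ERF, ELK1, ELK3 and RASA1). After spike-in scaling 3 of the 18 (ELK3, RASA1 and RPS6KA2) and 8 of the 15 did not (ETV1, PEBP1, RRAS, GAB1, RASA3, RPS6KA3, ERBB3 and IGF1R). Without the mean-variance trend 6 of the 18 (EGR3, EGR1, JUN, ERF, ELK1 and ELK3) and 4 of the 15 did not pass (MAPK3, GAB1, GAB2 and RPS6KA3). With a library left out, 9 of the 18 were lost in at least 1 run (DUSP5, EGR1, EGR3, ELK1, ELK3, ERF, JUN, PLAUR and RASA1). So were 9 of the 15 (EGR3, ETV1, GAB1, GAB2, IGF1R, MAPK3, RASA3, RPS6KA3 and RRAS).

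Among growth factors, 2 of 10 listed genes rose in each line and 0 fell. HBEGF, an EGF family ligand, was 5.44 ± 2.48 and 6.44 ± 0.92 in MeWo and rose in SkMel28 from 7.78 ± 1.01 to 25.8 ± 2.99 (log2 change 1.61, adjusted p = 0.000884). Of 10 listed receptors 3 rose and 1 fell in MeWo, and 2 rose and 2 fell in SkMel28. ERBB3, the neuregulin receptor, rose in MeWo from 105 ± 5.23 to 339.6 ± 32.9 (1.68, adjusted p = 2.86e-08) and in SkMel28 from 88.3 ± 6.21 to 130.4 ± 11.9 (0.56, adjusted p = 0.00457), and the changes differed (1.13, adjusted p = 0.000717). MET, the receptor of hepatocyte growth factor, fell in both lines, from 253 ± 3.61 to 77.9 ± 16.1 in MeWo (-1.70, adjusted p = 3.59e-07) and in SkMel28 from 67.5 ± 7.35 to 31.7 ± 3.70 (-1.07, adjusted p = 0.000107). IGF1R, the receptor of insulin-like growth factors, rose in SkMel28 (0.61, adjusted p = 0.0184).

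Of 10 adaptors and exchange factors 0 passed in MeWo, while in SkMel28 2 rose and 1 fell. GAB1, a docking protein, rose there from 8.07 ± 0.69 to 15.2 ± 1.69 (0.84, adjusted p = 0.0446), and its relative GAB2 fell from 225 ± 27.4 to 154 ± 5.98 (-0.54, adjusted p = 0.00961). Both changes differed from those in MeWo (MeWo minus SkMel28, -1.32 for GAB1 and 0.65 for GAB2, adjusted p = 0.0374 and 0.0368). Of 8 RAS GTPase-activating proteins RASA1 fell in MeWo (-0.70, adjusted p = 0.0255) and RASA3 rose in SkMel28 (0.55, adjusted p = 0.0189). NF1, the GTPase-activating protein bound by SPRED1, was 4.97 ± 1.68 in MeWo control and 15.2 ± 2.19 in SkMel28 control (log2 difference 1.47, SE 0.23, adjusted p = 4.09e-05), and did not pass with Dox in either line (0.19 and 0.41, adjusted p = 0.631 and 0.303). Of the 16 listed genes from RAS to ERK, 0 rose and 1 fell in MeWo, and 2 rose and 2 fell in SkMel28. PEBP1, the RAF kinase inhibitor protein, fell in both, from 2557 ± 57.0 to 1327 ± 94.1 in MeWo (-0.95, adjusted p = 2.85e-06) and in SkMel28 from 1191 ± 63.6 to 863 ± 14.4 (-0.46, adjusted p = 0.00449). PEBP1 fell more in MeWo (difference -0.49, adjusted p = 0.0419). In SkMel28 MAPK3, which encodes ERK1, fell from 77.1 ± 8.00 to 43.4 ± 8.37 (-0.83, adjusted p = 0.0248) and RRAS, a RAS relative, rose (0.88, adjusted p = 0.0326). BRAF had 2 to 16 reads per library, with group means of 1.92 to 2.44, and did not pass in any of the 5 comparisons (adjusted p of 0.681 to 0.949).

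Downstream, 1 of 6 ERK-activated kinases passed in each line: RPS6KA2 fell in MeWo (-0.56, adjusted p = 0.00604) and RPS6KA3 rose in SkMel28 (0.74, adjusted p = 0.0212). Of 9 repressors and serum response factors 2 rose and 1 fell in MeWo and 0 passed in SkMel28. In MeWo the repressor gene ERF went from 93.2 ± 7.22 to 189 ± 85.2 (0.89, adjusted p = 0.0358) and ELK1 from 32.4 ± 7.04 to 50.5 ± 11.7 (0.62, adjusted p = 0.0424), both with overlapping groups, and ELK3 fell (-0.61, adjusted p = 0.0387).

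Of 12 immediate early genes 5 rose and 1 fell in MeWo, and 3 rose and 0 fell in SkMel28. IER3, an ERK-induced survival gene, rose in MeWo from 134 ± 5.69 to 451 ± 90.0 (1.73, adjusted p = 1.47e-07), and was 1091 ± 45.2 and 1025 ± 149 in SkMel28 (-0.10, adjusted p = 0.732). These changes differed between the lines (1.83, adjusted p = 3.13e-05). JUN, an AP-1 subunit, rose in both lines, from 202 ± 6.92 to 306 ± 56.6 in MeWo (0.58, adjusted p = 0.0208) and from 31.1 ± 8.07 to 114 ± 1.64 in SkMel28 (1.87, adjusted p = 9.01e-07), more in SkMel28 (difference -1.29, adjusted p = 0.00269). EGR3 also rose in both (1.04 and 1.37, adjusted p = 0.0434 and 0.0136). In SkMel28 EGR3 went from 1.62 ± 1.26 to 5.55 ± 2.09, on 3 to 8 reads per library without and 11 to 22 with Dox. That call was lost with the 6 SkMel28 libraries alone and in a run with a library left out. Its relative EGR1 rose in MeWo (0.65, adjusted p = 0.0219). MAFF, a small MAF factor, fell in MeWo (-0.91, adjusted p = 0.000567) and went from 76.3 ± 5.97 to 105 ± 3.24 in SkMel28 (0.46, adjusted p = 0.0718). Its changes in the 2 lines differed (-1.37, adjusted p = 0.00142).

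Of 7 other listed output genes 3 rose and 1 fell in MeWo, and 1 rose and 1 fell in SkMel28. CCND1, the D-type cyclin that drives entry into the cell cycle, rose in MeWo from 126 ± 22.5 to 258 ± 96.8 (0.98, adjusted p = 0.00267) and was 951 ± 84.6 and 645 ± 50.9 in SkMel28 (-0.56, adjusted p = 0.0904), and the changes differed (1.54, adjusted p = 0.00364). ETV1, the third PEA3 family gene beside ETV4 and ETV5, rose in both lines, from 24.01 ± 3.72 to 40.1 ± 5.66 in MeWo (0.72, adjusted p = 0.00457) and in SkMel28 from 36.8 ± 3.09 to 58.1 ± 5.21 (0.65, adjusted p = 0.0131). The 3 genes of this family thus had different outcomes, since ETV5 fell and ETV4 did not pass. PLAUR, the urokinase receptor, rose in MeWo (0.80, adjusted p = 0.0122). Of 8 other MAP kinase phosphatases 1 rose in each line, in MeWo DUSP5, which acts on nuclear ERK (0.75, adjusted p = 0.0154). Of 7 other feedback inhibitors SOCS6 fell in MeWo, from 39.6 ± 4.94 to 18.4 ± 5.60 (-1.11, adjusted p = 0.00171), and 0 passed in SkMel28.

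**Figure D4:**
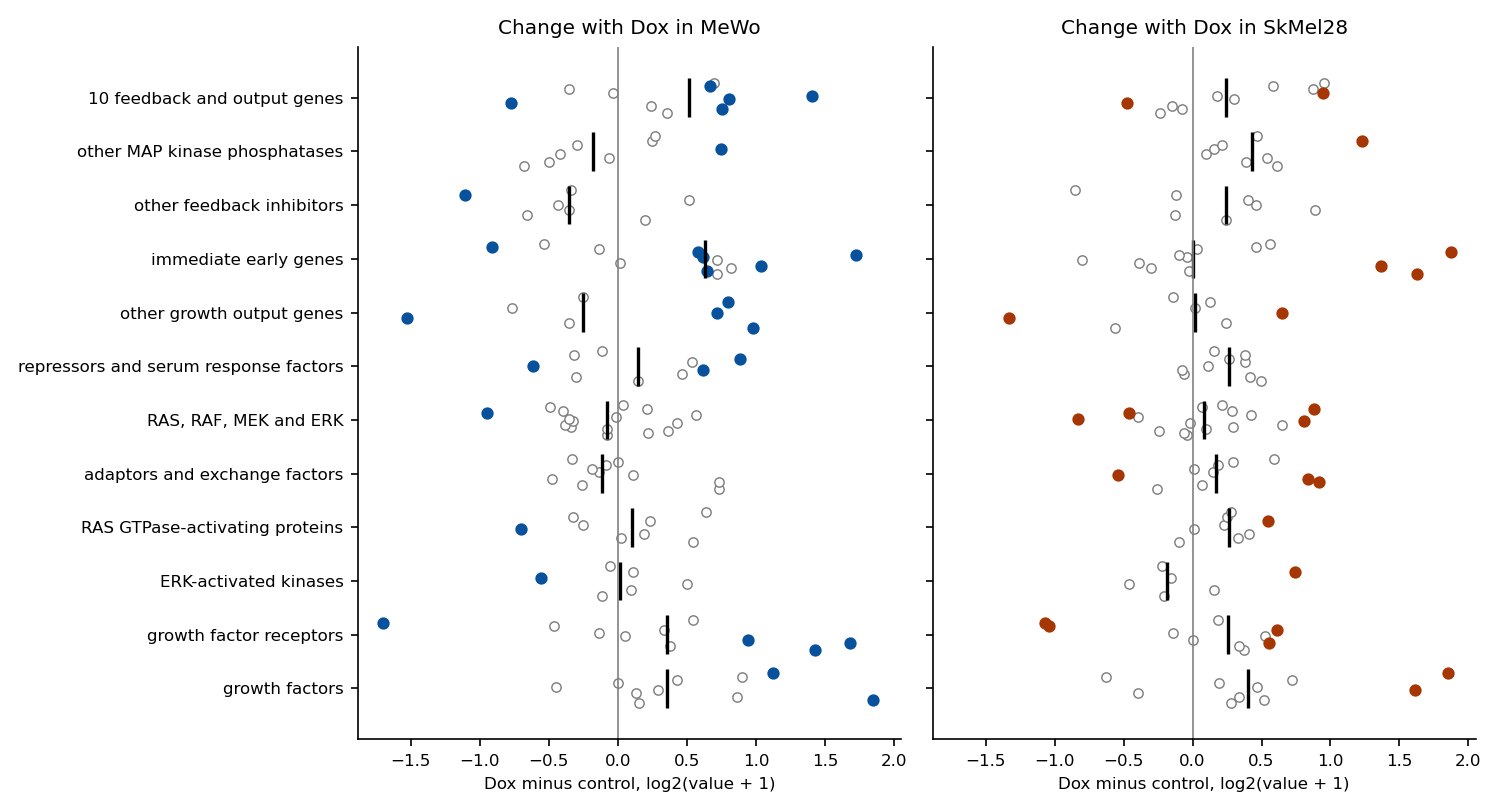
Change with Dox on the log2(value + 1) scale of every listed gene of the 10 feedback and output genes and of 11 further pathway lists, in MeWo (left) and SkMel28 (right). Filled points passed at an adjusted p under 0.05, open points did not, and black bars are list medians, 0.51 in MeWo and 0.24 in SkMel28 for the 10 genes.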

How the data were processed

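RNA from 12 samples of the human melanoma lines MeWo and SkMel28 was sequenced with the QuantSeq Forward kit. The deposited signal is not raw counts: per the table's name the authors normalised it with edgeR, and low features are absent from it. The submitters' processing notes name FastQC 0.11.7, cutadapt 2.8, STAR 2.5.1b, edgeR and build hg38, while the counting tool, annotation and strand are not given in the sources used here. Within a tolerance of 0.01 reads, 100% of values were whole multiples of 1 step per library, which gave back whole reads (2568187 to 3714608 per library), and effective library sizes recomputed with edgeR differed by at most 1.63e-09 of their size. The intervals given are from the limma fit described below and rest on the spread between libraries, which may be technical.

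The 67 spike-ins were set aside and log2(value + 1) of 12616 genes was fitted with limma 3.58.1 (R 4.3.3; lmFit and eBayes with trend) over all 12 libraries and 4 group means, two-sided, with Benjamini-Hochberg adjustment over all genes of each of 5 contrasts and a threshold of 0.05. A pseudocount of 1 understates changes of low genes. Count tests on the recovered reads (edgeR 4.0.16, DESeq2 1.42.0), other scalings, pseudocounts, filters and variance models, the replicate number as a block, 1 line alone and each library left out were alternatives.

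Genes named outside the 10 are those of the pathway lists that passed with Dox in either line and whose higher group averaged 10 or more, at most 4 per list and line by size of change, with MITF, NF1, BRAF and, for DUSP6 and SPRY4, the 5 genes of most similar pattern. A gene that this rule names is not reported here. The members and lists were chosen with earlier results of these data known. Groups were taken from the sample labels.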

Additional observations from a re-analysis of the deposited data

Results flagged for a closer look

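For 3 of the 10 genes the change with Dox differed between the lines in the test of the difference itself (limma, adjusted over 12616 genes). The MeWo change minus the SkMel28 change was 0.83 for DUSP6, 1.23 for PHLDA1 and -0.98 for SPRED1 on the log2(value + 1) scale. DUSP6 and PHLDA1 were higher in 3 of 3 MeWo Dox libraries than in any MeWo control, and SPRED1 in 3 of 3 SkMel28 Dox libraries than in any SkMel28 control. The test that flagged these genes used the same libraries, so this separation adds no support of its own. The share of all listed genes that separate in this way was not counted. The MeWo Dox libraries, which carry the DUSP6 and PHLDA1 changes, had the lowest share of spike-in reads (5.69 to 6.58%, against 6.29 to 8.43% in their controls, and in SkMel28 6.96 to 8.07% without and 7.76 to 8.55% with Dox) and the widest spread between replicates, and their part in these differences was not tested.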

How the results depend on the processing

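Of 50 results (10 genes in 5 comparisons) 25 passed, of which 17 passed in every alternative run and 0 changed sign in any. Of the changes with Dox, only those of DUSP6, ETV5 and PHLDA1 in MeWo and of SPRED1 in SkMel28 were among the 17. No difference between the lines in the change with Dox was among them. The rest compared the lines at 1 dose, where 51.4% (without Dox) and 53.6% (with Dox) of all listed genes passed. Of the 25 that did not pass, 6 passed in at least 1 alternative and 8 changed sign. The genes passing with Dox in MeWo numbered 3 with the 6 MeWo libraries alone and 3 to 6 with 1 library left out (5 in the main analysis), those in SkMel28 1 without the mean-variance trend and 1 to 4 with 1 library left out (2), and those whose changes differed between the lines 0 without the trend and 2 to 5 with 1 library left out (3). The highest of each range came without MeWo Dox 1, the library least like its group. The cause of these shifts was not tested, and the fits that leave some libraries out also hold fewer of them.

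Signs turned, in results that did not pass, as follows. With scaling to the spike-ins the difference between the lines in the change with Dox was 0.026 for SPRY4 and 0.069 for ETV5, the MeWo change of SPRED1 was 0.23 and its line difference without Dox 0.0098. The MeWo change of SPRED1 was 0.0049 with edgeR and 0.018 with DESeq2, and the line difference of PHLDA1 without Dox was -0.021 with upper-quartile scaling and -0.027 with quantile normalization. With 1 library left out, DUSP6 in SkMel28 ran from -0.17 to 0.026, SPRED1 in MeWo from -0.25 to 0.13, the difference in change from -0.12 to 0.36 for SPRY2 and from -0.57 to 0.18 for SPRY4, and the line difference without Dox from -0.076 to 0.43 for SPRED2 and from -0.13 to 0.14 for PHLDA1.

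Scaling to the spike-ins moved the median of all genes by 0.26 in MeWo, -0.094 in SkMel28 and 0.35 in their difference, and by 0.14 and -0.21 between the lines without and with Dox. All genes passing then split into 2097 higher and 383 lower in MeWo (1082 and 1025 in the main analysis), 394 and 533 in SkMel28 (742 and 636), 1360 and 159 in the difference (468 and 426), 3630 and 2231 between the lines without Dox (3352 and 3133), and 2507 and 3826 with Dox (3533 and 3233). With the 6 MeWo libraries alone 813 genes passed in MeWo (2107), and without the trend 554 in the difference (894). With 1 library left out the counts ran from 1281 to 3913 in MeWo, 784 to 2042 in SkMel28 and 449 to 3115 in the difference.

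Control and Dox libraries of 1 replicate number deviated from their group means with r of -0.30, -0.07 and 0.05 in MeWo and -0.10, 0.12 and 0.29 in SkMel28. Libraries of different numbers had r of -0.27 to 0.34 in MeWo and -0.35 to 0.31 in SkMel28. Deviations within a group of 3 sum to 0, so these values cannot decide whether equal numbers share a culture. With the number as a replicate block, 5, 2, 3, 6 and 9 of the 10 genes passed in MeWo, SkMel28, the difference, and the lines without and with Dox, as in the main analysis, and 1821, 1070, 641, 6313 and 6590 of all genes.

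Depth was lowest for SPRY4 and FOSL1, with as few as 2 and 8 reads in a library, where 1 read more or less moves a value most.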
